A study of Mus musculus with 10 samples.

Results

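The 9 genes described here encode enzymes of the tricarboxylic acid cycle, and they were taken by name (Cs, Idh2, Idh3a, Ogdh, Dlst, Suclg1, Sucla2, Fh1 and Mdh2) from a table of 20206 genes. All 9 were listed once and all 9 passed the filter for testing. RNA was sequenced from 10 male-labelled, wild-type C57BL/6 mouse embryonic stem cell (ESC) lines, 5 from blastocysts of mothers fed a low protein diet (LPD, 9% casein) and 5 from mothers fed a normal protein diet (NPD, 18% casein). The mothers were 7 to 9 weeks old at mating and ate their diet from then until the blastocysts were collected at embryonic day 3.5, so exposure to the diets ended before the lines were derived, and RNA was taken from lines in culture. Per the study's methods each line came from a different mother, so a line is 1 replicate of its diet, represents 1 blastocyst, and is named here by its number. The comparison asks whether transcripts of the cycle differed between undifferentiated lines with these maternal histories.

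The tricarboxylic acid cycle runs in the mitochondrial matrix. Acetyl groups from pyruvate, fatty acids or amino acids join oxaloacetate to form citrate, and a round of oxidations releases carbon dioxide, charges NADH and reduced flavin for the respiratory chain, and restores oxaloacetate. In mouse ESCs the cycle also supplies citrate for cytosolic acetyl-CoA, and its intermediate alpha-ketoglutarate is a cofactor of the enzymes that remove methyl groups from histones and DNA.

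The values are the authors' normalized gene totals, scaled per line with DESeq2 by the table's name. Whether the scaling was a single size factor for each line is not given in the sources used here. A difference is a log2 fold change of value + 1, LPD against NPD. The ESC label was checked on 10 pluripotency markers, whose summed value was 101120 to 129883 in LPD lines and 94438 to 129668 in NPD lines, and none was at 0 in any line. Summed markers of fibroblasts, the feeder cells of early culture, lay between 369 and 3450 in LPD lines and between 459 and 5833 in NPD lines, with 4 of the 10 at 0 in at least 1 line. Those of primitive endoderm lay between 1712 and 11490.2 in LPD lines and between 967 and 8728 in NPD lines, with 1 of 8 at 0 in at least 1 line. All 8 primitive endoderm markers had a log2 fold change above 0 (median 0.44). Of 7 fibroblast markers tested, 6 were below 0 (median -0.88), as were 6 of 10 pluripotency markers (median -0.02). None of these markers had an unadjusted limma p under 0.05. The smallest step between values put the depth of the NPD lines at 20404940 to 23182045 read equivalents and that of the LPD lines at 5845271 to 24148878, the shallow ones being LPD lines 4, 6 and 40. The 4 Y-linked genes in the table summed to 701 in LPD line 4 and 152 in NPD line 15, against 3706 to 4305 in the other 8 lines, which goes against the male label of those lines, so results are also given without them. In bulk RNA, fewer cells of a type and less RNA per cell cannot be told apart.

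No enzyme of the set had a diet difference that passed a test against the spread between lines. In limma's moderated test, 0 of the 9 genes had an adjusted p under 0.1, where 0% of 14354 tested genes did, and 0 of the 9 had an unadjusted p under 0.05, where 5.02% did (2.84% higher and 2.18% lower in LPD). The ranges of the diets overlapped for all 9, against 1.02% of tested genes with no overlap. The log2 fold change was above 0 for 8 of 9 genes, with a median of 0.06, and the median over all tested genes was 0.00 with 50.5% above 0. The exact permutation test over the 252 ways of dividing the lines gave p from 0.222 to 1 for the members, the smallest it can give being 0.00794. The 95% intervals allowed at most a 1.29-fold higher level in LPD lines, for Fh1, and a level of 0.842 times that of NPD lines, for Idh2. Without LPD line 4 and NPD line 15 the log2 fold changes ran from 0.03 to 0.20, with a smallest unadjusted limma p of 0.136. Rescaling every line to the same total moved the median of all genes to -0.03 and that of the 9 enzymes to 0.02, with 6 of 9 above 0, so the count of members above 0 is not independent of the scaling.

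**Figure D1:**
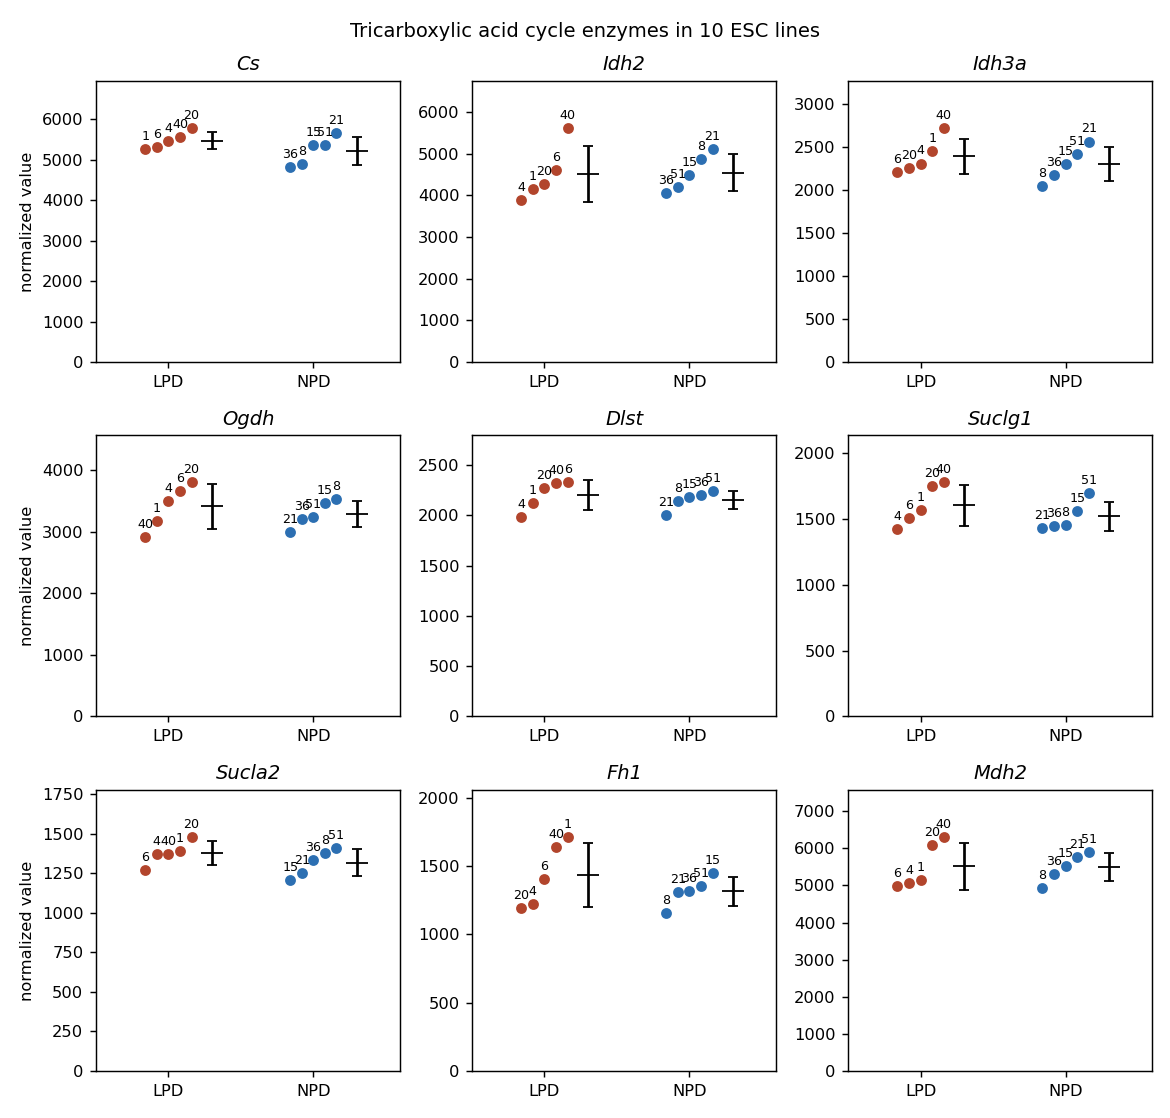
Normalized value (y axis, from 0) of the 9 enzymes in 5 LPD lines (red) and 5 NPD lines (blue), each point a line labelled with its number and ordered by value within a diet, with the mean and SD in black beside them. The diets overlap in every panel, and LPD line 40 is the highest point for Idh2, Idh3a, Suclg1 and Mdh2.

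Entry to the cycle was described by Cs, citrate synthase, which condenses acetyl-CoA with oxaloacetate (ENSMUSG00000005683, chr10:128337734-128362479, plus strand, GRCm38, with 11 exons in its longest coding transcript). Its normalized value was 5256, 5458, 5305, 5789 and 5556 in LPD lines 1, 4, 6, 20 and 40, and 4899, 5360.3, 5658, 4827 and 5361 in NPD lines 8, 15, 21, 36 and 51. NPD lines 8 and 36 were lowest, and the other lines of both diets were interleaved. LPD lines 4, 20 and 40 lay above NPD lines 15 and 51, whereas LPD lines 1 and 6 lay below them. NPD line 21 exceeded every LPD line except line 20. The 5 LPD lines averaged 5473 ± 213 (SD) and the 5 NPD lines 5221 ± 349.8 (SD), a log2 fold change of 0.07 with a standard error (SE) of 0.07 that did not pass the limma test (adjusted p = 0.994, exact permutation p = 0.222).

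Isocitrate is oxidised by the NAD+-dependent enzyme, of which Idh3a is the catalytic subunit, and by the NADP+-dependent mitochondrial enzyme Idh2, which yields NADPH. Idh3a (ENSMUSG00000032279, chr9:54586334-54604661, plus strand, 11 exons) had values of 2453, 2305, 2211, 2249.8 and 2719 in LPD lines 1, 4, 6, 20 and 40 and of 2047, 2295, 2560.0, 2169.7 and 2417 in NPD lines 8, 15, 21, 36 and 51. LPD line 40 was the highest and NPD line 8 the lowest, with the other lines of both diets interleaved. The log2 fold change of Idh3a was 0.06 (SE 0.09, 95% interval -0.13 to 0.25, limma adjusted p = 0.994, exact permutation p = 0.50). Idh2 (ENSMUSG00000030541, chr7:80094846-80115392, minus strand, 11 exons) had values of 4161, 3897, 4613, 4266 and 5617 in the same order of LPD lines and of 4874, 4497, 5103, 4042 and 4203 in the NPD lines. Both ends of its range were LPD lines, line 40 at the top and line 4 at the bottom. Idh2 averaged 4511 ± 669.5 (SD) over the 5 LPD lines against 4544 ± 445 (SD) over the 5 NPD lines, and its log2 fold change of -0.02 (SE 0.11, limma adjusted p = 0.997, exact permutation p = 0.873) was the only one below 0 among the 9. The sign is not fixed by these lines, since it turned to 0.03 without LPD line 4 and NPD line 15 and lay between -0.10 and 0.03 when lines were left out 1 at a time.

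Alpha-ketoglutarate is converted to succinyl-CoA by a complex in which Ogdh is the decarboxylating subunit and Dlst carries the lipoyl arm that takes up the succinyl group. Ogdh (ENSMUSG00000020456, chr11:6291633-6356642, plus strand, 23 exons) had values of 3176, 3504, 3666, 3803 and 2919 in LPD lines 1, 4, 6, 20 and 40 and of 3529, 3462, 2993, 3212 and 3245 in NPD lines 8, 15, 21, 36 and 51. LPD lines held both the highest value, in line 20, and the lowest, in line 40, the line that was highest for 4 other members. The log2 fold change of Ogdh was 0.05 (SE 0.09, 95% interval -0.14 to 0.24, limma adjusted p = 0.994, exact permutation p = 0.563). Dlst (ENSMUSG00000004789, chr12:85110833-85134845, plus strand, 15 exons) stayed within a narrow range, at 2122, 1980.2, 2330.1, 2272 and 2326 in the LPD lines and 2139.7, 2182, 2009, 2206 and 2246 in the NPD lines. Lines 6, 20 and 40 of LPD exceeded all NPD lines and LPD line 4 lay below them all. The log2 fold change of Dlst was 0.03 (SE 0.08, 95% interval -0.13 to 0.19, limma adjusted p = 0.996, exact permutation p = 0.579).

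Promoter sequences are shown for the 3 members whose window held a searched motif, to let the sites be seen beside the values. Windows of 250 bases before to 50 after the transcript start were taken from RefSeq (GRCm38.p6), which had 13 windows for 8 of the 9 members, Ogdh having 6 of them. Both strands were searched for GCGCANGCG (NRF1) and CCGGAAG (GABPA), which bind factors known for nuclear genes of mitochondrial proteins, and for TCAAGGTCA (ESRRA and ESRRB, the latter part of the pluripotency network). The NRF1 motif was present in windows of Ogdh and Sucla2, the GABPA motif in that of Dlst, and the ESRR motif in none of the 13. Of 32851 RefSeq windows of this length, 6.25%, 8.86% and 0.423% held the NRF1, GABPA and ESRR motif. Counted by gene, as for the members, the shares were 7.03%, 9.93% and 0.466% of 27025 genes. In the sequences below, capitals mark the motif. The 2 Ogdh windows with a match overlap and share the same site, and the first is printed (chr11:6292308-6292607, plus strand). The Dlst window is chr12:85110583-85110882 and the Sucla2 window chr14:73552536-73552835, both plus strand, and in these the motif reads on the opposite strand.
Ogdh: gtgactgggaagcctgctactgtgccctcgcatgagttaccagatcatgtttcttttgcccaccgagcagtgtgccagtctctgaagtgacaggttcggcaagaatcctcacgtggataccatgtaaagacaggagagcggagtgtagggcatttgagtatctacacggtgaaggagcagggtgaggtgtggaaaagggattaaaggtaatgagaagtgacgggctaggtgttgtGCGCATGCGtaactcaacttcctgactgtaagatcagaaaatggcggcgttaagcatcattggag
Dlst: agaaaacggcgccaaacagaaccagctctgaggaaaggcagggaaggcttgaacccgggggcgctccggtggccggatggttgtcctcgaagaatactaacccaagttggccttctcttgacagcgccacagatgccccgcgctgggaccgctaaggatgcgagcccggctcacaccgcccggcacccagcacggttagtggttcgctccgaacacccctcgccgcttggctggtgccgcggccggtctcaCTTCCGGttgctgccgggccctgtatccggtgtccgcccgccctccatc
Sucla2: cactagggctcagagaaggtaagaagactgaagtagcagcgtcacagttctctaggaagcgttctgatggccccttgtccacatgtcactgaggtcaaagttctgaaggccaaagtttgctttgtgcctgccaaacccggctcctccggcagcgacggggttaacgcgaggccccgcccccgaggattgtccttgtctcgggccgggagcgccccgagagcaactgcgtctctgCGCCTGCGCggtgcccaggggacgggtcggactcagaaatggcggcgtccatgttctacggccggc
The GC content of the 13 windows lay between 49.3% and 72.3%, with 11 to 37 CpG dinucleotides, against medians of 52.7% and 7 over all windows. A match describes letters only, and none of the 3 genes that hold one passed the test between diets.

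Succinyl-CoA is split by a ligase that makes a nucleoside triphosphate, in which Suclg1 is the alpha subunit common to both forms and Sucla2 the beta subunit of the ADP-using form. Suclg1 (ENSMUSG00000052738, chr6:73248382-73276911, plus strand, 9 exons) had values of 1567, 1425, 1505, 1749 and 1779 in LPD lines 1, 4, 6, 20 and 40 and of 1456, 1563, 1435, 1445 and 1700.5 in NPD lines 8, 15, 21, 36 and 51. LPD lines 20 and 40 were above all NPD lines and LPD line 4 was below them all. Its log2 fold change was 0.08 (SE 0.09, 95% interval -0.12 to 0.27, limma adjusted p = 0.994, exact permutation p = 0.325). Sucla2 (ENSMUSG00000022110, chr14:73525319-73596142, plus strand, 11 exons) had values of 1390.4, 1369.9, 1268, 1481 and 1372 in the LPD lines and of 1377, 1206, 1254, 1336 and 1412 in the NPD lines. NPD lines 15 and 21 lay below every LPD line, while the other 3 NPD lines fell among them. Sucla2 averaged 1376 ± 75.7 (SD) over the 5 LPD lines against 1317 ± 85.5 (SD) over the 5 NPD lines, and the log2 fold change was 0.06 (SE 0.08, limma adjusted p = 0.994, exact permutation p = 0.278).

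Fumarate is hydrated to malate by Fh1, fumarate hydratase, and malate is oxidised to oxaloacetate by Mdh2, which closes the cycle. Fh1 (ENSMUSG00000026526, chr1:175600374-175625635, minus strand, 10 exons) had values of 1714, 1219, 1407, 1194 and 1639 in LPD lines 1, 4, 6, 20 and 40 and of 1155, 1449, 1307, 1316 and 1352 in NPD lines 8, 15, 21, 36 and 51. LPD lines 1 and 40 stood above all NPD lines, whereas LPD lines 4 and 20 were lower than every NPD line except line 8. Fh1 had the largest log2 fold change of the set, 0.11 (SE 0.12, 95% interval -0.14 to 0.36), which did not pass the limma test (adjusted p = 0.994, exact permutation p = 0.373). Mdh2 (ENSMUSG00000019179, chr5:135778480-135790398, plus strand, 9 exons) had values of 5146, 5066, 4973, 6079.7 and 6312 in the LPD lines and of 4939, 5538, 5778, 5311 and 5914 in the NPD lines. LPD lines 20 and 40 were the highest of all, LPD lines 1, 4 and 6 were low, and the NPD lines lay between these runs except for NPD line 8, the lowest of all. Mdh2 averaged 5516 ± 629.6 (SD) over the 5 LPD lines against 5496 ± 387 (SD) over the 5 NPD lines, a log2 fold change of 0.00 (SE 0.09, 95% interval -0.20 to 0.20, limma adjusted p = 0.999, exact permutation p = 1).

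A further 8 subunits of cycle enzymes lay in the same range. Their log2 fold changes were above 0 for 6 of 8, with a median of 0.06, and 0 had an unadjusted limma p under 0.05. Dld, the lipoamide-oxidising subunit that the complex of Ogdh and Dlst shares with other dehydrogenases, had the largest log2 fold change of the 8 at 0.12 (exact permutation p = 0.0714, limma adjusted p = 0.994). The partners of Idh3a, the regulatory subunits Idh3b and Idh3g, had log2 fold changes of 0.09 and -0.04. Among the 4 subunits of succinate dehydrogenase, which oxidises succinate and feeds the respiratory chain, the values were -0.01 for Sdha, 0.04 for Sdhb, 0.11 for Sdhc and 0.07 for Sdhd.

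**Figure D2:**
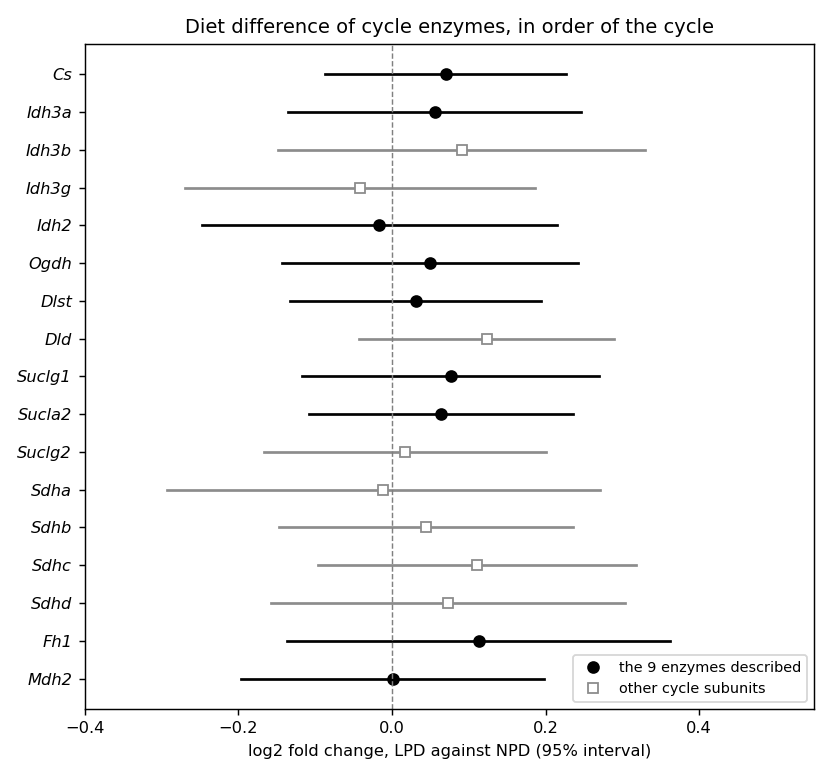
Log2 fold change of LPD against NPD lines (x axis) with its 95% limma interval for enzymes and subunits of the cycle (y axis), filled circles for the 9 enzymes described and open squares for 8 other subunits. Every interval includes 0, and all point estimates lie between -0.04 and 0.12.

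Levels between genes were compared as normalized value per kilobase of the longest coding transcript, with 10 lines behind each value. Mdh2 was highest at 3781 ± 339 per kb (SD over 10 lines), followed by Idh2 at 2594 ± 307, Cs at 1827 ± 104, Suclg1 at 1029 ± 88.9, Idh3a at 908 ± 76.8, Ogdh at 812 ± 69.9, Dlst at 789 ± 43.7, Sucla2 at 604 ± 36.9 and Fh1 at 522 ± 69.8 per kb. Mdh2 exceeded Idh2, Idh2 exceeded Cs, Cs exceeded Suclg1 and Dlst exceeded Sucla2 in 10 of 10 lines, and Suclg1 exceeded Idh3a in 9 of 10. The mean log2 difference was within 1 SD of the lines' differences for Idh3a and Ogdh (0.16 ± 0.23), for Ogdh and Dlst (0.04 ± 0.14) and for Sucla2 and Fh1 (0.22 ± 0.22). The first gene was the higher in 7, 6 and 7 of 10 lines, so the order of these neighbours varied from line to line. The SD describes single lines, and no test of the mean differences was run. The table gives gene totals, so the length in use is not known, and with the mean length of all coding transcripts the level of Mdh2 became 6328 per kb and that of Ogdh, at 1133 per kb, passed that of Idh3a, at 940.2 per kb. On that length Dlst, at 789 per kb, fell below both Sucla2, at 933, and Fh1, at 865, so the place of Dlst above Sucla2 holds for the longest transcript only. All 9 lay between percentile 80.0 and 96.4 of the tested genes by mean normalized value, a measure that is not per length.

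**Figure D3:**
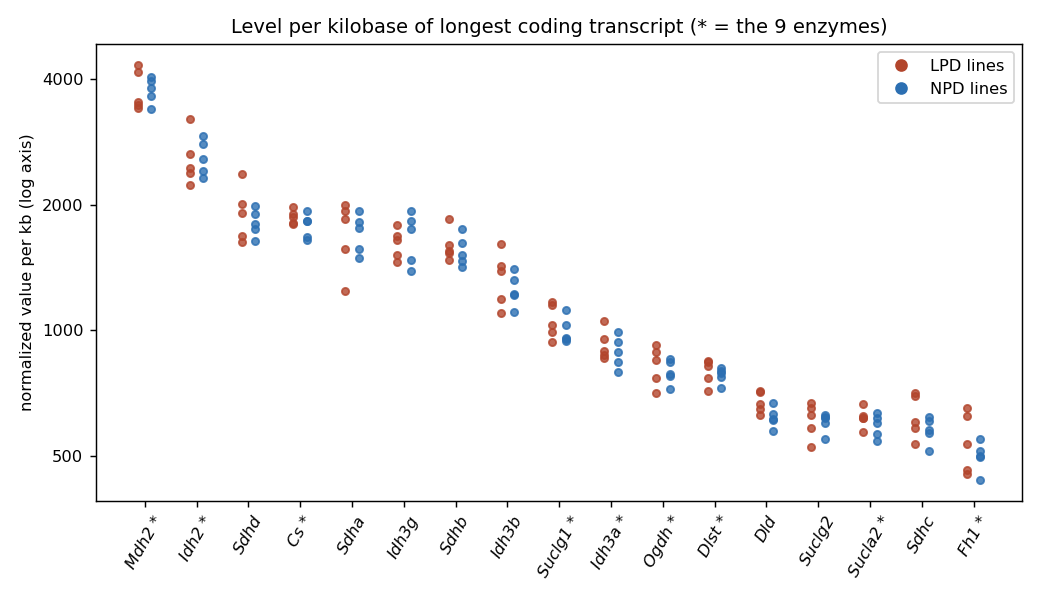
Normalized value per kb of the longest coding transcript (log y axis) for the 9 enzymes and 8 other cycle subunits in order of their mean, with each point a line, LPD red and NPD blue, and an asterisk at the 9 enzymes described. Mdh2 and Idh2 have the highest means, and Sucla2 and Fh1 overlap at the low end.

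The paired isozymes and subunits were compared as log2 ratios within each line. Per kb of the longest coding transcript, Idh2 exceeded Idh1, the cytosolic NADP+-dependent enzyme, 2.42-fold on average. Mdh2 exceeded the cytosolic Mdh1 4.16-fold on the same length, and both held in 10 of 10 lines. These folds depend on the length used. The longest transcripts of Idh2 and Idh1 have 1745 and 2302 bases, but their mean coding lengths are 1068.5 and 1090 bases. The log2 ratio of Idh2 to Idh1, not per length, was 0.54, 0.73, 1.26, 0.34 and 0.88 in LPD lines 1, 4, 6, 20 and 40 and 0.97, 0.86, 1.15, 1.09 and 0.96 in NPD lines 8, 15, 21, 36 and 51. LPD line 6 was the highest of all, while LPD lines 1, 4 and 20 were below every NPD line. The difference of -0.25 (LPD minus NPD) had an exact permutation p of 0.167 (0.667 after Benjamini-Hochberg adjustment over the 4 ratios). Without LPD line 6, the line highest for this ratio, the difference was -0.38 (exact permutation p = 0.0159, unadjusted). With any other line left out it lay between -0.29 and -0.15 (exact permutation p from 0.167 to 0.325, unadjusted). The ratio of Sucla2 to Suclg2, the beta subunit of the GDP-using ligase, was even per kb (0.997-fold), with Sucla2 higher in 5 of 10 lines, and differed between diets by 0.05 (exact permutation p = 0.405). Ogdh and Dlst were close to even per kb of the longest transcript (1.03-fold) but not of the mean coding length, where Ogdh had 1133 and Dlst 789 per kb, with a diet difference of 0.02 (exact permutation p = 0.857), and that of Mdh2 to Mdh1 was -0.06 (exact permutation p = 0.659).

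Variation among lines of the same diet was small for most of the enzymes. The within-diet SD on the log2 scale was 0.08 for Cs and Dlst, 0.09 for Sucla2, 0.12 for Suclg1 and Idh3a, 0.13 for Ogdh, 0.14 for Mdh2, 0.17 for Idh2 and 0.19 for Fh1. The median over the 3838 tested genes with a mean of at least 1000 was 0.17, and 7 of the 9 lay below it, all but Idh2 and Fh1. Highest over lowest line ran from 1.18 for Dlst to 1.48 for Fh1. LPD line 40 held the highest value for 4 members and the lowest for 1, Ogdh. The members' median deviation from the median of the 10 lines was 0.21 in that line. For the tested genes with a mean of at least 1000 it was 0.02. LPD line 20 held the highest value for 3 members (Cs, Ogdh and Sucla2), with a median deviation of 0.11, where that of the same well-expressed genes was 0.09. LPD line 4, the shallowest, and NPD line 8 each held the lowest value for 3 members, and NPD line 36 was above the median for 1 of 9.

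**Figure D4:**
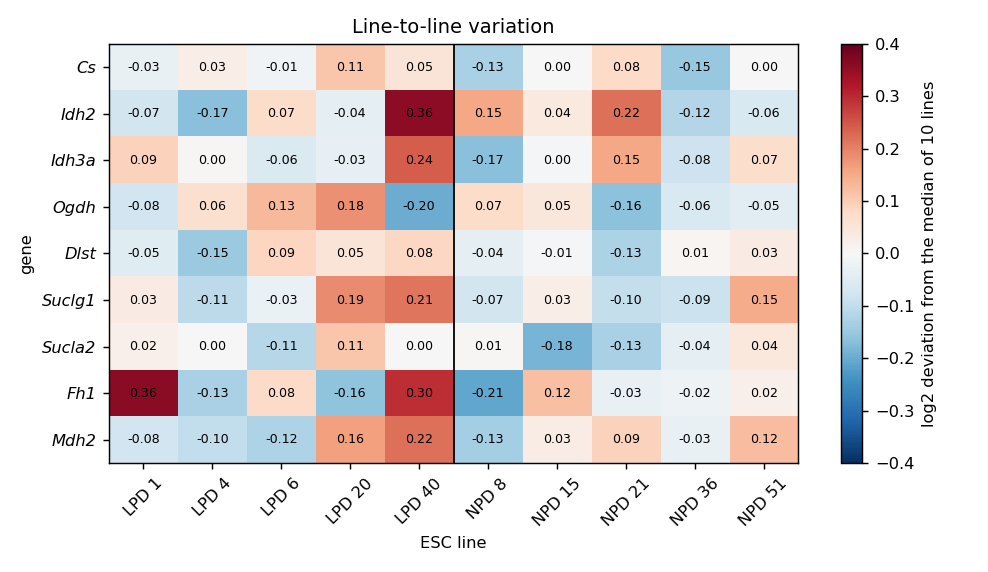
Log2 deviation of each of the 9 enzymes (rows) from its own median over 10 ESC lines (columns, LPD left of the black line and NPD right of it), red above and blue below the median. LPD line 40 is above the median for 8 of 9 genes and lowest of all lines for Ogdh.

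The enzymes did not vary as a single block across the 10 lines. Of the 36 pairs of members, 25 had a positive Pearson r on log2 values, with a median r of 0.23, and 0 had an adjusted permutation p under 0.05 (smallest 0.212, over 36 pairs). The pair with the highest r was Suclg1 and Mdh2 (r = 0.77, permutation p = 0.0118, Spearman rho = 0.64, permutation p = 0.0535, n = 10 lines), and r was 0.49 without the 2 lines farthest from the median of Suclg1. The pair with the lowest was Idh3a and Ogdh (r = -0.76, permutation p = 0.0099, rho = -0.73, permutation p = 0.0199), with r = -0.68 without the 2 lines farthest from the median of Idh3a. Ogdh was negatively correlated with 6 of the other 8 members, and Suclg1 and Mdh2 positively with 7 of 8 each. Outside the set, the genes whose log2 values followed the mean of the standardized members most closely, among 10446 with a mean of at least 100, were Txnl1 (r = 0.97), Aprt (r = 0.94), Atp5d (r = 0.94), Uqcrc2 (r = 0.94) and Med11 (r = 0.92), where the members themselves ran from -0.21 for Ogdh to 0.94 for Suclg1. Atp5d and Uqcrc2 encode subunits of the ATP synthase and of respiratory complex III, whereas Txnl1, Aprt and Med11 do not encode such subunits. These genes were picked for the highest r among the 10446, and the values are a description over 10 lines with no test.

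The level of Idh3a moved with a property of the whole library, the only 1 of 36 relations of members with line measures to pass adjustment. Of these line measures only depth was planned, as a description with no test. The others were not planned, and the adjustment covers only these 36. In each line the deviation of genes from their median was regressed on transcript length and GC content, and this length trend was -0.11 log2 units per doubling of length in LPD line 40, -0.06 in NPD line 21 and 0.07 in NPD line 8. Across the 10 lines it correlated with Idh3a at r = -0.95 (permutation p = 6e-05, adjusted p = 0.00216 over 36 relations of members with line measures) and rho = -0.94 (permutation p = 0.00026, adjusted p = 0.00936), and r was -0.85 without the 2 extreme lines. Idh3a, whose longest coding transcript has 2580 bases, was high in lines with relatively high values of short transcripts. Members of similar length differed, with r of -0.65 for Cs (2926 bases), -0.54 for Fh1 (2636 bases), -0.18 for Dlst (2764 bases) and -0.13 for Sucla2 (2229 bases). The part of the length trend in the level of Idh3a was not tested. For Mdh2 (1456 bases) r was -0.81 (permutation p = 0.00374, adjusted p = 0.0673) and rho -0.79 (permutation p = 0.00903, adjusted p = 0.163), with r = -0.70 without the 2 extreme lines. For Ogdh (4127 bases) r was 0.69 (permutation p = 0.0258, adjusted p = 0.281) and rho 0.64 (permutation p = 0.054, adjusted p = 0.324), and with r = 0.21 without the 2 extreme lines the relation rested on them. The r with the length trend was below 0 for 8 of the 9 members, all but Ogdh, with -0.63 for Suclg1 and -0.58 for Idh2. Apart from Idh3a, none had an adjusted permutation p under 0.05. Without the 2 extreme lines r was -0.85 for Suclg1, -0.63 for Cs, -0.46 for Fh1, -0.44 for Sucla2 and -0.22 for Dlst, but 0.35 for Idh2. With length and GC trends removed from each line, an alternative chosen after the data were seen, the correlation of Idh3a and Ogdh was -0.49 and the median log2 fold change of the 9 enzymes was 0.06. Depth gave r between -0.17 and 0.21 with the members, the summed fibroblast markers between -0.66 and 0.48 and the summed primitive endoderm markers between -0.58 and 0.59, none with an adjusted permutation p under 0.05. The GC trend of each line came from the same regression as the length trend and was not among the 36 relations.

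**Figure D5:**
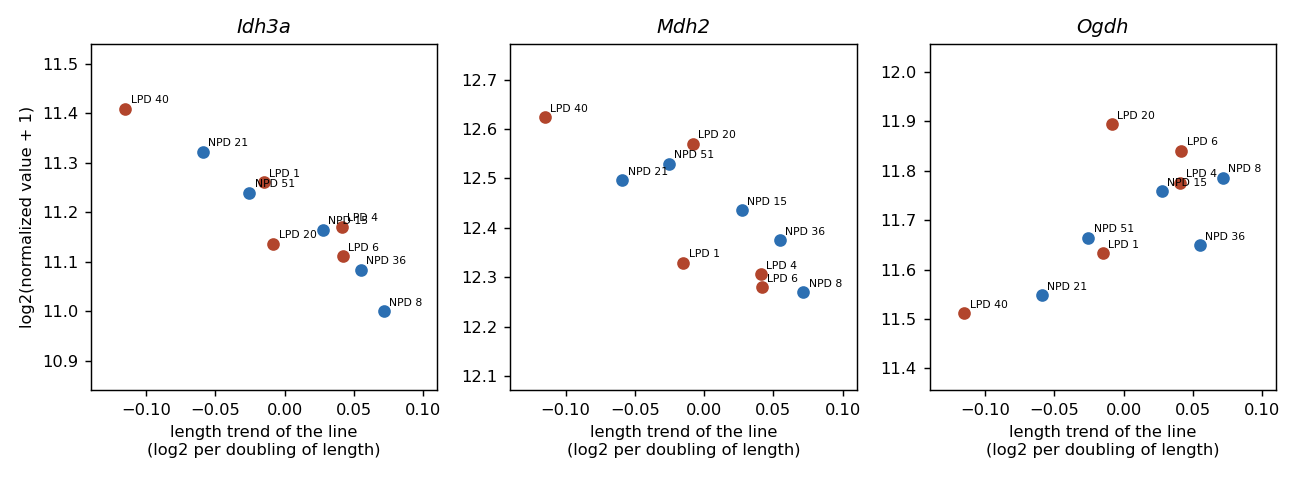
Log2 of value + 1 of Idh3a, Mdh2 and Ogdh (y axes, each spanning the same number of log2 units) against the length trend of the line (x axis, log2 per doubling of transcript length), each point a line, LPD red and NPD blue. Idh3a falls along the axis from LPD line 40 to NPD line 8 (r = -0.95), Mdh2 falls less tightly (r = -0.81), and Ogdh runs the other way (r = 0.69).

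Around the set, 9 lists covered other cycle subunits, pyruvate entry, anaplerosis, cytosolic isozymes, mitochondrial carriers, lipoylation, alpha-ketoglutarate-related enzymes, succinate dehydrogenase assembly and regulators of mitochondrial biogenesis, with 72 of 76 genes tested. Of these, 2 had an unadjusted limma p under 0.05 (2.78%, against 5.02% of all tested genes) and 0 an adjusted p under 0.1, and the median log2 fold change was -0.01. Pprc1, a coactivator of mitochondrial gene expression, averaged 2604 ± 368 (SD) over the LPD lines against 3227 ± 365 (SD) over the NPD lines, with 4 of 5 LPD lines below all NPD lines and a log2 fold change of -0.31 (unadjusted limma p = 0.0129, exact permutation p = 0.0317, adjusted p = 0.839). Iba57, an iron-sulfur cluster factor needed for the cluster enzyme that makes lipoate, averaged 175 ± 48.3 (SD) in LPD against 127 ± 18.4 (SD) in NPD lines, with 4 of 5 LPD lines above all NPD lines and a log2 fold change of 0.43 (unadjusted limma p = 0.049, exact permutation p = 0.0556, adjusted p = 0.993). Neither passed after adjustment, Iba57 missed an unadjusted 0.05 in 14 of 22 alternatives, and Pprc1 missed it with depth as a covariate.

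In the other lists the gene with the smallest unadjusted limma p did not reach 0.05 in the test as run, although 3 of these genes did in some alternatives. The log2 fold change was -0.18 for Dlat, the lipoyl-bearing subunit of pyruvate dehydrogenase, 0.15 for Pcca, which feeds propionyl units into the cycle, and 0.24 for Idh1. It was -0.32 for the dicarboxylate carrier Slc25a10, with 3 of 5 LPD lines below all NPD lines (unadjusted limma p = 0.0696, exact permutation p = 0.0794), -0.17 for D2hgdh, which returns hydroxyglutarate to alpha-ketoglutarate, and -0.08 for the assembly factor Sdhaf3. Of the 6 tested carriers 5 had values below 0 with a median of -0.18, and of the 4 assembly factors 4 did with a median of -0.06, with 0 of these carriers and factors past an unadjusted limma p of 0.05. Slc25a10 passed it in 3 of 22 alternatives, with a log2 fold change of -0.53 with depth as a covariate, -0.42 without LPD line 6 and -0.38 without LPD line 4. Idh1 passed it in 2, at 0.39 with depth as a covariate and 0.35 without LPD line 6, and Dlat in 1, at -0.26 with array weights, while its value was -0.08 without LPD line 4.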

How the data were processed

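Messenger RNA of 10 ESC lines was sequenced. Per the study's methods and the submitters' processing notes, reads were trimmed with cutadapt and quantified by Salmon on GRCm38 transcripts, and the study tested transcripts with sleuth 0.30.0. The authors deposited 1 normalized signal per gene and line, DESeq2-scaled by the table's name, and how transcripts were summed to genes is not given in the sources used here. These are not raw counts, so no count model was run. Among a line's low values above 0, 67.4% to 73.7% were whole numbers of reads, within a tolerance of 0.15 of 1 read. Among the low values of genes with 1 annotated transcript, the share was 92.2% to 99.7%. Depth was estimated as the summed value divided by the smallest step, which covers counting error only and limits LPD lines 4, 6 and 40 most.

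Groups were taken from the sample titles. Log2(value + 1) was tested with limma 3.58.1 (R 4.3.3, trended variance) on the 14354 genes whose mean reached 10, LPD against NPD with no covariate, with Benjamini-Hochberg adjustment over all of them. Transcript-level sleuth testing could not be repeated on gene values. The pseudocount of 1 understates changes of low genes, to which the members do not belong. Single values were also compared with the two-sided exact permutation test over 252 assignments, and correlations with 100000 permutations (Python 3.11.15, scipy 1.17.1). The limma step was tested on simulated data. Lengths, exons and positions came from the GENCODE annotation of GRCm38. Symbols were matched for 19891 of 20206 genes. No pair of lines shared values: the smallest SD of log2 differences between lines was 0.20.

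The 9 members and all gene lists were chosen with earlier results of these data known. Named were the members, every listed gene with an unadjusted p under 0.05 or else the smallest p of its list, the partners needed for ratios and complexes, and the 5 genes most like the members' mean over the lines. The alternatives were 22 other settings: pseudocounts, filters, scalings, variance models, a depth covariate, trends removed, and lines left out. One gene of the cycle list is not reported here.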

Additional observations from a re-analysis of the deposited data

Results flagged for a closer look

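In 60 sets of 5 lines, a gap between the most extreme line and the rest was set against Dixon's critical value of 0.71, which chance passes in about 1 set in 20, and 2 sets passed it. Mdh1, the cytosolic partner of Mdh2, was 2131 in NPD line 15 against 1776 to 1855 in the other NPD lines, a gap of 0.762 of the range. The log2 ratio of Mdh2 to Mdh1 was 1.14 in LPD line 6 against 1.51 to 1.61 in the other LPD lines, a gap of 0.780 of the range. None of the 9 enzymes had such a line in either diet.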

How the results depend on the processing

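No paired analysis was possible because the LPD and NPD lines share no line numbers. The members' log2 fold changes kept their sign in 183 of 198 member and setting combinations, and 0 reached an unadjusted limma p under 0.05 (smallest 0.136). Signs turned for values near 0: with equal totals Dlst was -0.0034 and Mdh2 -0.033, Mdh2 was -0.041 after quantile normalization, -0.032 with array weights and -0.016 with length and GC trends removed, and Idh2 was 0.031 without LPD line 4 and NPD line 15. With lines left out 1 at a time, Idh2 ran from -0.099 to 0.033, Mdh2 from -0.050 to 0.036, the members' median from 0.037 to 0.081, and the diet difference of the log2 ratio from -0.38 to -0.15 for Idh2 over Idh1, from -0.10 to 0.026 for Mdh2 over Mdh1 (above 0 without LPD line 6) and from -0.030 to 0.094 for Ogdh over Dlst (below 0 without LPD line 4, LPD line 20 or NPD line 51). The count of all genes at an adjusted limma p under 0.1 was 0, with 721 at an unadjusted p under 0.05, became 1 with array weights, and ran from 0 to 40 with lines left out, the 40 without LPD line 40. None of the members was among them. Equal totals turned the split of the unadjusted calls from 408 higher and 313 lower to 295 higher and 439 lower. With the mean length of coding transcripts, levels per kb were 6328 for Mdh2, 4237 for Idh2, 1522 for Suclg1, 1133 for Ogdh, 933 for Sucla2 and 865 for Fh1, since several coding transcripts of these genes are short. Other causes were not tested. With 5 lines a diet, the intervals given set the size of difference these data leave possible.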
